A study of Mus musculus with 24 samples.

Results

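Livers of old wild-type mice were compared with livers of young ones, 4 against 4, which makes 8 of the 24 ribosome profiling libraries of the series. Old mice were 104 weeks of age and young mice 16 weeks, and the libraries were chosen by these labels alone. All 8 mice were males of the genotype Ercc1 +/+ from the F1 cross of C57BL6J and FVBN, kept on AIN93G pellets and fed ad libitum. The other 16 libraries entered the common fit, which estimates the spread between replicates from all groups: wild types of 16 weeks on 30% dietary restriction, and Ercc1 d/- mutants, which have a deficient DNA repair nuclease and age early, fed at 7 and 16 weeks or restricted at 16 weeks. Of these, the mutants fed ad libitum at 16 weeks also served as a further comparison for the old livers. No mouse of any group was fed on the day of collection before its liver was taken, and the clock time of collection is not given per liver in the sources used here. The young mice were already adult, and females, other strains and ages between these are outside the comparison.

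Ribosome profiling sequences the stretches of mRNA that translating ribosomes protect from a nuclease, so the count of a gene follows both the amount of its mRNA and how often that mRNA is translated. Hepatocytes make up most of the liver and carry out its metabolism: they burn fatty acids under the control of the nuclear receptor PPAR alpha, detoxify drugs with cytochromes P450, make bile acids and secrete plasma proteins, and many of these genes follow the sex of the animal or the hour of the day. Macrophages called Kupffer cells, endothelial cells, stellate cells and a few lymphocytes make up the rest. In whole liver, fewer cells of a type and less RNA per cell cannot be told apart, which holds for every gene below. For genes that follow the hour of the day, age and any difference in the hour of collection cannot be told apart either. That limit is not confined to the clock genes.

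Total counts ran from 13671963 to 16165181 in old libraries and from 13366558 to 25278530 in young ones. The label liver went with the data: albumin took 6.42 ± 1.63% of the counts in old livers and 9.92 ± 0.657% in young livers (SD, n = 4 each). The first principal component of the 8 libraries held 37.8% of their variance and had every old library on one side and every young one on the other. On the second, with 17.5%, old replicate 1 lay at -45.7, against 7.41 to 28.7 in the other 3 old libraries and -12.2 to 1.48 in the young ones, so old replicate 1 stood apart and is given separately where a result rests on it. Of the 12211 genes tested, 8107 had a larger SD of log2(CPM + 1) in old than in young livers, which is 66.4%.

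Of those 12211 genes, 1141 differed between old and young livers at an adjusted p under 0.05 in edgeR's quasi-likelihood test, which is 9.34%. Of these 580 (4.75%) were higher and 561 (4.59%) lower in old livers, with 287 and 238 of them more than 2-fold. These shares are the background for the gene lists below, and the median log2 change over all genes tested was 0.015. In 1055 genes (8.64%) all 4 old libraries lay above all 4 young ones, and in 1097 (8.98%) all lay below. Abundances are CPM, the counts of a gene scaled to a common library total, listed in the order of replicates 1 to 4, and log2 changes, old minus young, carry their standard error. Without young replicate 4 the count of changed genes was 755, and the higher ones numbered 367, 357 and 359 without young replicates 1, 3 and 4. Without old replicate 1 the count was 868.

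**Figure D1:**
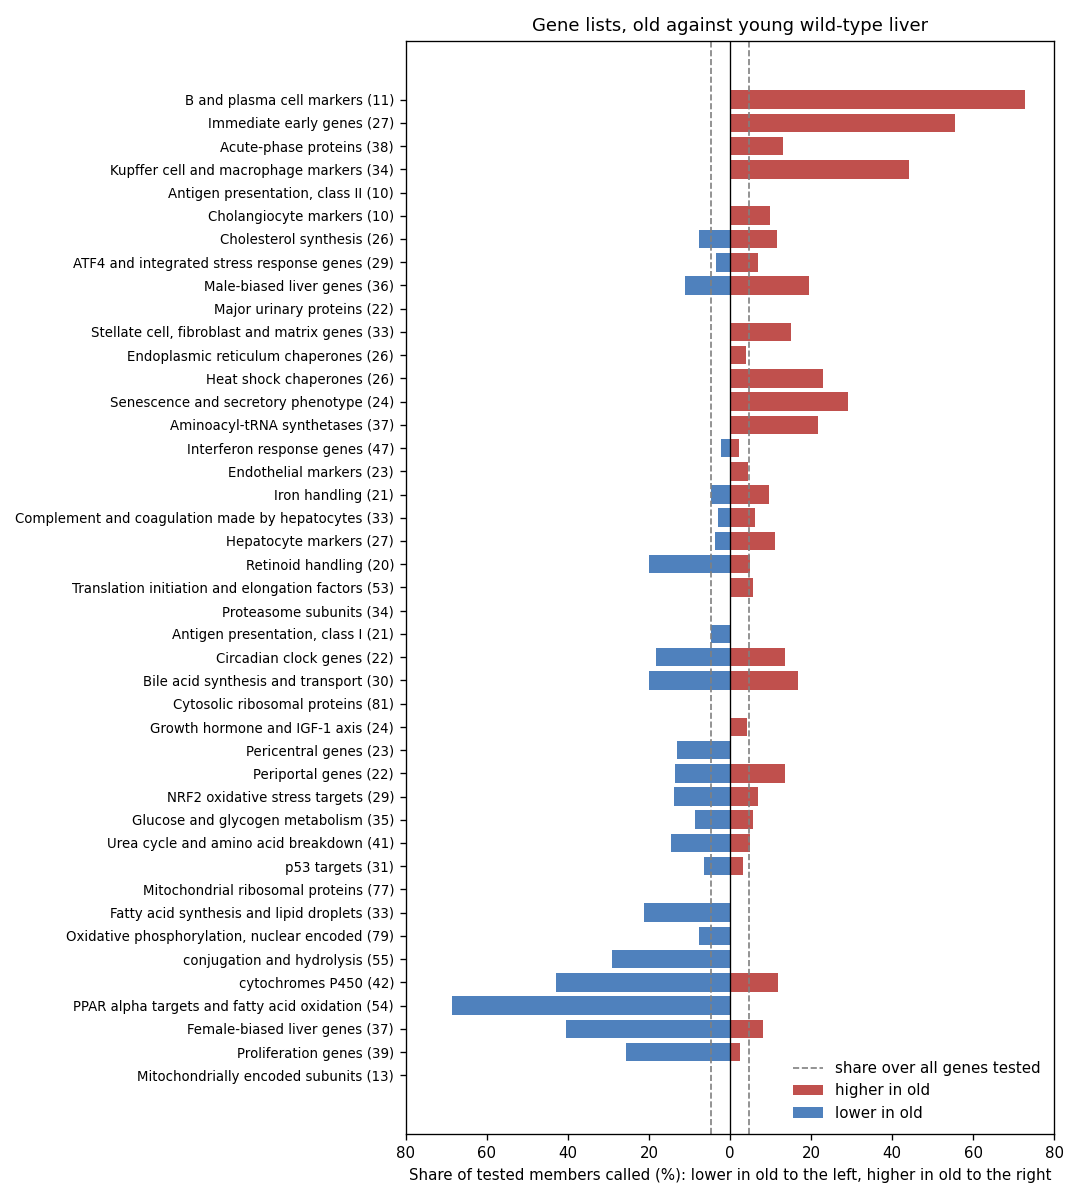
Share of the tested members of each gene list that were called higher in old liver (right, red) or lower (left, blue), in percent, with the number tested in brackets, for lists with 10 or more tested, ordered by their median log2 change. Dashed lines give the share over all 12211 genes, 4.75% higher and 4.59% lower; immediate early and plasma cell genes lie highest, and fatty acid oxidation and female-biased genes lie among the lowest medians.

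Genes of fatty acid oxidation fell in old liver as a broad group. PPAR alpha is a receptor for fatty acids that switches on the genes for their uptake, activation and oxidation. Of 54 tested members of the list of its targets and of fatty acid oxidation enzymes, 37 fell and 0 rose, against 4.59% lower and 4.75% higher over all genes. The median log2 change was -0.76, and 40 members had every old library below every young one, against 8.98% over all genes.

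The hydroxylases of the Cyp4a family, which oxidise the far end of fatty acids, fell. Within the list the changes of Cyp4a10, Cyp4a14, Cyp4a31 and Cyp4a32 were the largest. Cyp4a10 had 68.5, 30.2, 62.4 and 26.2 CPM in old livers, against 899, 563, 843 and 1789 CPM in young livers (log2 -4.45 ± 0.36, adjusted p = 4.10e-08). Cyp4a14 had 43, 7.76, 22.5 and 8.43 CPM in old livers, against 653, 237, 629 and 1173 CPM in young livers (log2 -5.04 ± 0.58, adjusted p = 1.13e-05), and its log2 change was -5.71 without old replicate 1. The highest old library of either gene lay well below the lowest young one. Cyp4a31 (log2 -3.91 ± 0.30, adjusted p = 1.33e-08) and Cyp4a32 (log2 -3.89 ± 0.31, adjusted p = 3.41e-08) fell as well. They are near-identical copies of Cyp4a10, and how reads that fit several copies were counted is not given in the sources used here, so the 3 are uncertain one by one. The ratio of Cyp4a32 to Cyp4a31 was 1.41 to 1.55 in old libraries and 1.40 to 1.53 in young ones, while that of Cyp4a10 to Cyp4a31 was 1.35 to 1.84 in old libraries and 2.24 to 2.45 in young ones.

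Fatty acid uptake and the splitting of acyl-CoA followed the same direction. Cd36, which takes up fatty acids, had 32.7, 12.9, 34.7 and 19.8 CPM in old livers, against 139, 76, 152 and 187 CPM in young livers (log2 -2.47 ± 0.26, adjusted p = 1.13e-06). The cytosolic thioesterase Acot1 had 14.7, 13.2, 17 and 25 CPM in old livers, against 174, 142, 158 and 281 CPM in young livers (log2 -3.43 ± 0.36, adjusted p = 2.49e-06). Its mitochondrial relative Acot2 changed by -3.25 ± 0.34 and the peroxisomal Acot3 by -3.39 ± 0.42 on the log2 scale (adjusted p = 2.21e-06 and 2.58e-05). Vnn1, a pantetheinase, had 14, 9, 9.92 and 13.1 CPM in old livers, against 63.9, 43.6, 102 and 115 CPM in young livers (log2 -2.82 ± 0.29, adjusted p = 8.38e-07). In all 5 genes the groups did not overlap.

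Genes of transport and oxidation fell too. Slc25a20, which carries acylcarnitines into mitochondria, had 56.1, 62.1, 57.8 and 70.9 CPM in old livers, against 137, 137, 141 and 154 CPM in young livers (log2 -1.21 ± 0.15, adjusted p = 3.82e-06). Further members were picked after their values were seen, for their place in the pathway. Acadm, which oxidises medium chains in mitochondria, changed by -0.84 ± 0.14 (adjusted p = 0.000276). Cpt1a, the gate of mitochondrial oxidation, did not pass at -0.66 ± 0.23 (adjusted p = 0.0779). The receptor gene Ppara did not pass either, with 72, 108, 102 and 125 CPM in old livers, against 155, 126, 145 and 154 CPM in young livers (log2 -0.51 ± 0.21, adjusted p = 0.131). Angptl4 and Pdk4, which fasting raises through PPAR alpha, had log2 changes of -0.46 ± 0.30 and -0.58 ± 0.51 and adjusted p of 0.379 and 0.551, so not every target of the receptor was called. The log2 change of Pdk4 was -1.21 without old replicate 1. In the fit of the 8 libraries alone Cpt1a and Ppara passed as lower (adjusted p = 0.0152 and 0.0497). Fgf21, the hormone that PPAR alpha induces in liver, had 0.0712, 0.218, 0.347 and 0.829 CPM in old livers, against 1.96, 2.39, 3.28 and 1.65 CPM in young livers (log2 -2.64 ± 0.57, adjusted p = 0.0037). All 4 old libraries were under 1 CPM of Fgf21 and all 4 young ones above it, and the log2 change was -3.42 without old replicate 4.

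**Figure D2:**
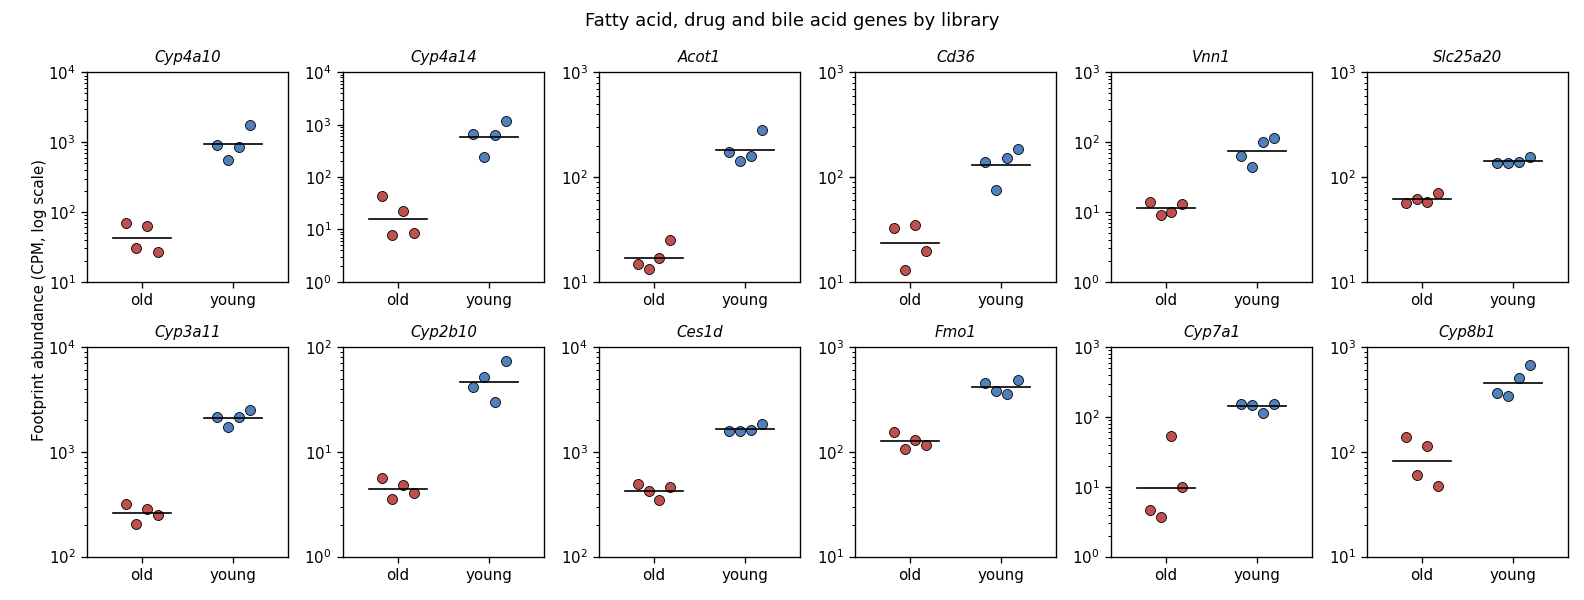
Footprint abundance in CPM (log axis) of 12 genes of fatty acid, drug and bile acid metabolism in each library; points are the 4 old and 4 young livers and lines their geometric means. In every panel the 4 old livers lie below the 4 young ones, as in Cyp4a14, at 7.76 to 43 CPM in old livers and 237 to 1173 CPM in young livers.

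Lipid storage genes changed in part. Of 33 tested genes of fatty acid synthesis and lipid droplets, 7 fell and 0 rose, and the falling count was 3 without young replicate 4. G0s2, an inhibitor of fat breakdown, had 1.42, 22.6, 7.07 and 9.74 CPM in old livers, against 135, 168, 156 and 107 CPM in young livers (log2 -3.79 ± 0.57, adjusted p = 0.000248), and its log2 change was -4.53 without old replicate 2. Mogat1, which builds triglycerides, had 1.21, 0.435, 0.624 and 0.967 CPM in old livers, against 5.76, 2.82, 6.16 and 8.44 CPM in young livers (log2 -2.82 ± 0.42, adjusted p = 8.34e-05). The desaturase Fads2 fell with little spread, at 423, 428, 399 and 411 CPM in old livers, against 791, 587, 700.2 and 587 CPM in young livers (log2 -0.68 ± 0.16, adjusted p = 0.00659). Enzymes of synthesis were not called: the log2 change was 1.36 ± 0.57 for Fasn, the fatty acid synthase (adjusted p = 0.152), and -0.01 ± 0.40 for Scd1, which makes monounsaturated fatty acids (adjusted p = 0.991). Scd1 ranged from 2595 to 12045 CPM among old livers and from 5485 to 8788 CPM among young livers. Cholesterol synthesis had a median of 0.49 over 26 genes, of which 3 rose and 2 fell, and the rising count was 0 without old replicate 1, 1 without young replicate 4, and 5 without old replicate 3.

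Genes of drug metabolism fell more often than they rose. Cytochromes P450 oxidise drugs and steroids, and other enzymes then hydrolyse or conjugate them. Of 42 tested P450 genes 18 fell and 5 rose, and of 55 genes of conjugation and hydrolysis 16 fell and 0 rose. Cyp3a11, the main drug-oxidising P450 of mouse liver, had 318, 204, 286 and 247 CPM in old livers, against 2173, 1731, 2144 and 2528 CPM in young livers (log2 -3.02 ± 0.27, adjusted p = 4.88e-08). Cyp3a16, Cyp3a41a, Cyp3a41b and Cyp3a44 fell by a like amount, with log2 changes of -3.02 ± 0.31, -2.91 ± 0.26, -2.93 ± 0.26 and -2.94 ± 0.27. Each of them kept a nearly fixed ratio to Cyp3a11 (that of Cyp3a16 was 0.208 to 0.238 in old libraries and 0.200 to 0.237 in young ones), so reads shared with Cyp3a11 cannot be told apart from expression of their own. Cyp2b10 had 5.63, 3.55, 4.85 and 4.01 CPM in old livers, against 41.4, 51.6, 30.1 and 74.4 CPM in young livers (log2 -3.45 ± 0.41, adjusted p = 1.32e-05). The receptors that induce these families gave a mixed picture: the log2 change was -1.35 ± 0.39 for Nr1i3, the receptor CAR (adjusted p = 0.0332), a call lost without old replicates 1, 2 or 3 or young replicates 1, 2 or 4 (adjusted p up to 0.0972) or with no filter on low counts (adjusted p = 0.061), and -0.21 ± 0.22 for Nr1i2, the receptor PXR (adjusted p = 0.626).

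Among the other enzymes the carboxylesterase Ces1d had 488, 423, 347 and 461 CPM in old livers, against 1572, 1585, 1609 and 1829 CPM in young livers (log2 -1.94 ± 0.16, adjusted p = 1.33e-08). The 2 groups were separated by more than 1000 CPM. The flavin monooxygenase Fmo1 had 156, 107, 129 and 115 CPM in old livers, against 451, 380.2, 359.7 and 485 CPM in young livers (log2 -1.72 ± 0.16, adjusted p = 4.10e-08), and Fmo2 changed by -2.52 ± 0.26 (adjusted p = 7.19e-07). The glutathione transferase Gsta3, the epoxide hydrolase Ephx2 and the glucuronosyltransferase Ugt1a9 fell too, with log2 changes of -0.83 ± 0.16, -0.75 ± 0.14 and -0.95 ± 0.17. Cyp2e1, which metabolises ethanol, did not pass, with 4472, 5516, 6458 and 9044 CPM in old livers, against 6767, 8004, 7837 and 10539 CPM in young livers (log2 -0.38 ± 0.21, adjusted p = 0.292).

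Genes with a sex difference moved unevenly in these male livers. Growth hormone, released in pulses in males and more steadily in females, sets the sex-biased pattern of the mouse liver. Of 37 tested female-biased genes 15 fell and 3 rose, with a median of -1.01, but Cyp4a10, Cyp4a14, Acot3 and the Cyp3a copies named above are among them. Of 36 male-biased genes 7 rose and 4 fell, with a median of 0.46. Cyp7b1, a hydroxylase of oxysterols and steroids, had 351, 700.4, 469 and 816 CPM in old livers, against 107, 188, 188 and 225 CPM in young livers (log2 1.72 ± 0.33, adjusted p = 0.00193). Susd4 rose too, to 2.42, 3.99, 3.12 and 3.94 CPM in old livers, against 0.901, 1.35, 0.84 and 0.827 CPM in young livers (log2 1.78 ± 0.34, adjusted p = 0.00122). Against that, the male-biased Cyp4a12a fell, with 322, 333, 341 and 303 CPM in old livers, against 673, 613, 591 and 680.4 CPM in young livers (log2 -0.98 ± 0.16, adjusted p = 0.000259).

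Major urinary proteins, pheromone carriers that male liver secretes in bulk, took 10.2 ± 0.913% of the counts in old livers and 6.94 ± 1.93% in young livers (SD, n = 4 each). All 22 tested genes of the family had a positive log2 change, with a list median of 0.42. Some are near-identical copies, and how reads that fit several copies were counted is not given. The ratio of Mup14 to Mup8 was 0.965 to 1.08 in old libraries and 0.971 to 1.02 in young ones. The 22 genes are therefore uncertain one by one and do not count as separate results. In edgeR 0 of them passed and 2 had an unadjusted p under 0.05, while DESeq2 called 2 higher (the smallest adjusted p in edgeR was 0.0795, for Mup8). Mup8 had 5554, 6728, 3705 and 3713 CPM in old livers, against 549.8, 1816, 1831 and 2472 CPM in young livers, and young replicate 1 was low. The growth hormone receptor Ghr did not pass at 176 ± 9.96 CPM in old livers and 179 ± 11 CPM in young livers (SD, n = 4 each; adjusted p = 0.948). Igf1, its main hormone target in liver, had a log2 change of -0.18 ± 0.15 (adjusted p = 0.508). Of 24 tested genes of this axis 1 rose, the cytokine brake Socs3, with 8.26, 10.9, 25.9 and 9.39 CPM in old livers, against 1.76, 0.858, 0.76 and 1.49 CPM in young livers (log2 3.48 ± 0.50, adjusted p = 7.66e-05). Igfbp1, which binds IGF-1, varied widely, with 847, 17.3, 72.7 and 2.07 CPM in old livers, against 11.2, 17.6, 12.7 and 4.39 CPM in young livers (log2 4.35 ± 1.76, adjusted p = 0.136), and old replicate 1 was the highest of the 8. The log2 change of Igfbp1 was 1.41 without old replicate 1, and DESeq2 called it higher.

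Bile acid genes split by step. Bile acids are made from cholesterol by the classic route, which starts with Cyp7a1, or the alternative route, in which Cyp7b1 acts. Of 30 tested genes of synthesis and transport 5 rose and 6 fell; the rising count was 3 without old replicates 2, 3 or 4 or young replicates 1, 2 or 3. Cyp7a1, the rate-limiting enzyme, had 4.63, 3.63, 53.3 and 10.02 CPM in old livers, against 153, 149.8, 116 and 153 CPM in young livers (log2 -2.99 ± 0.63, adjusted p = 0.00518). Old replicate 3 was the highest old library and still lay below the lowest young one, and the log2 change was -4.55 without old replicate 3. In the fit of the 8 libraries alone the call was lost (adjusted p = 0.0948). Cyp8b1, which directs synthesis to cholic acid, had 138, 59.6, 114 and 47.3 CPM in old livers, against 364, 338, 513 and 679.6 CPM in young livers (log2 -2.40 ± 0.43, adjusted p = 0.00138). Akr1d1, a later enzyme of the pathway, changed by -1.03 ± 0.17 (adjusted p = 0.000202). Cyp7b1 rose, as given above, and so did Cyp2c70, which makes muricholic acids in mice, with 881, 1097, 809 and 706 CPM in old livers, against 230.3, 581, 332 and 470.3 CPM in young livers (log2 1.11 ± 0.26, adjusted p = 0.00781). Of the exporters, Abcb11, the bile salt pump of the canaliculus, had 358, 363, 327 and 380.3 CPM in old livers, against 178, 208, 191 and 203 CPM in young livers (log2 0.87 ± 0.20, adjusted p = 0.00738). Abcc3, which exports to the blood side, went the other way at 96.5, 96.4, 116 and 138 CPM in old livers, against 282, 218, 316 and 320.1 CPM in young livers (log2 -1.34 ± 0.15, adjusted p = 1.57e-06).

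Retinoid genes were mostly lower among those called. Of 20 tested genes 4 fell and 1 rose. Aldh1a1, which makes retinoic acid, had 1109, 795, 1112 and 1124 CPM in old livers, against 2096, 2001, 1835 and 2225 CPM in young livers (log2 -0.98 ± 0.20, adjusted p = 0.00238). Cyp26a1, which clears retinoic acid, rose to 6.91, 4.64, 6.45 and 6.22 CPM in old livers, against 1.61, 2.45, 3.4 and 1.16 CPM in young livers (log2 1.46 ± 0.33, adjusted p = 0.00539).

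Clock genes changed in opposite directions. In the circadian clock, ARNTL and CLOCK bind E-boxes and switch on the Per, Cry, Nr1d1 and Dbp genes, while NR1D1 represses Arntl through elements that the ROR factors activate. Of 22 tested clock genes 3 rose and 4 fell. Promoter windows are shown for 3 genes that changed, 2 with the E-box and 1 with a ROR element, to place the motifs of this loop beside the values. They are RefSeq windows of GRCm38.p6, 250 bases before to 50 after the transcription start, read 5′ to 3′ on the gene's strand. The first 2 are those of Cry1 (chr10:85185005-85185304, minus strand) and Bhlhe41 (chr6:145865371-145865670, minus strand), with the E-box CACGTG in capitals. The third is 1 of 2 windows of Arntl (chr7:113207261-113207560, plus strand), with TAGGTCA, the core of a ROR element, in capitals.
Cry1: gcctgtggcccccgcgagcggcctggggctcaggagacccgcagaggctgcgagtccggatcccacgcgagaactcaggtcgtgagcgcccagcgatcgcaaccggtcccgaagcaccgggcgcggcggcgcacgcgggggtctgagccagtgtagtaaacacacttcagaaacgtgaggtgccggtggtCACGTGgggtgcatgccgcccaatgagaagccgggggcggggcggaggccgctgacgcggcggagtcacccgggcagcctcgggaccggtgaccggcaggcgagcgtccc
Bhlhe41: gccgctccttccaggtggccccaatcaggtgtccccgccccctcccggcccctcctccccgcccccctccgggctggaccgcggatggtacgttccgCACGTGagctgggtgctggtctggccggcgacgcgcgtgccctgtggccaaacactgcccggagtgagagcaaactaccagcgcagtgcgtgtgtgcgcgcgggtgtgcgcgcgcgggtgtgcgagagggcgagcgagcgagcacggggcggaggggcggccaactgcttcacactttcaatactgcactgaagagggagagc
Arntl: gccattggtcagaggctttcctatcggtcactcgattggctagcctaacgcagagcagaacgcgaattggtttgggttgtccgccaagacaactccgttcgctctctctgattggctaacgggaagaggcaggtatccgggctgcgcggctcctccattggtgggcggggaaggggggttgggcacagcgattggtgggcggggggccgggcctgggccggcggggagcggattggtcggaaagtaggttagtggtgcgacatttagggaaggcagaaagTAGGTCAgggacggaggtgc
The E-box starts at base 191 of the window of Cry1 and at base 98 in that of Bhlhe41, and TAGGTCA at base 281 in that of Arntl. Searched on both strands, CACGTG lies in 2349 of 32851 RefSeq windows (7.15%) and TAGGTCA, a motif added after the data were seen, in 856 (2.61%). The E-box was found in 6 of 26 windows of clock genes (23.1%) and TAGGTCA in 2 (7.69%). By gene, these were 5 and 2 of the 18 clock genes that have a window, and the windows of Nr1d1, Dbp and Clock hold neither. These matches describe the windows and show no binding. A further motif was searched, a direct repeat in which the same short run of bases recurs. It lay in 13 of 32851 RefSeq windows (0.0396%). It was found in 0 of 49 windows of PPAR alpha targets and fatty acid oxidation genes, from 41 genes, and in 0 of 26 windows of clock genes. With a motif this rare over all windows, 0 matches do not tell either list apart from the background.

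Nr1d1, the repressor REV-ERB alpha, had 19, 33.7, 46.7 and 52.3 CPM in old livers, against 5.99, 1.84, 2.44 and 1.08 CPM in young livers (log2 3.68 ± 0.43, adjusted p = 5.11e-06). The lowest old library lay above the highest young one, and the log2 change was 4.35 without young replicate 1. Dbp, an output factor of the clock, had 17.7, 28.5, 20.3 and 56.2 CPM in old livers, against 5.44, 2.21, 4.44 and 3.48 CPM in young livers (log2 2.96 ± 0.36, adjusted p = 8.25e-06). Bhlhe41, another repressor, rose to 0.784, 1.89, 3.4 and 3.11 CPM in old livers, against 0.352, 0.368, 0.96 and 0.0827 CPM in young livers (log2 2.27 ± 0.53, adjusted p = 0.00694), where old replicate 1 overlapped with young replicate 3 and the log2 change was 2.98 without young replicate 3.

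The activators were lower. Arntl had 1.14, 0.435, 0.485 and 0.484 CPM in old livers, against 3.29, 5.82, 4.44 and 7.36 CPM in young livers (log2 -3.01 ± 0.39, adjusted p = 1.00e-05). Its partner Clock had 6.41, 3.48, 5.69 and 5.04 CPM in old livers, against 7.24, 9.56, 8.96 and 10.3 CPM in young livers (log2 -0.80 ± 0.21, adjusted p = 0.0145), a call lost without old replicate 2 (adjusted p = 0.061). Cry1, a repressor of the ARNTL and CLOCK pair, fell with them, to 4.06, 6.09, 3.05 and 6.84 CPM in old livers, against 18.1, 18.6, 17.8 and 24.5 CPM in young livers (log2 -1.97 ± 0.21, adjusted p = 6.18e-07). The groups did not overlap in any of these 3 genes. Per1 and Per2, the other arm of that repressor, did not pass, with log2 changes of 0.74 ± 0.48 and -0.13 ± 0.23 and adjusted p of 0.386 and 0.787. Because these genes cycle over the day, age and any difference in the hour of collection cannot be told apart here.

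**Figure D3:**
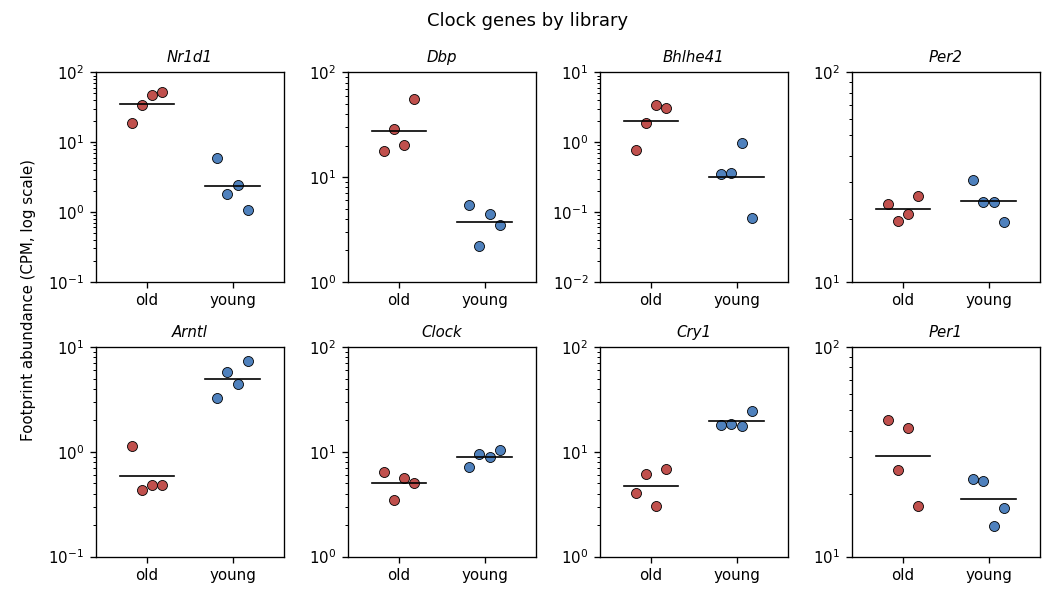
Footprint abundance in CPM (log axis) of 8 clock genes in each library; points are the 4 old and 4 young livers and lines their geometric means. Nr1d1 and Dbp are higher in all 4 old livers, Arntl, Clock and Cry1 are lower in all 4, and Per1 and Per2 overlap.

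Immediate early genes, which growth factors and stress switch on within minutes, were higher in old liver with a wide spread. Of 27 tested genes 15 rose and 0 fell, with a median log2 change of 1.69, and the rising count was 8 without old replicate 1 and 7 in a fit of the 8 libraries alone. Junb, a subunit of the factor AP-1, had 156, 41.3, 65.4 and 25.6 CPM in old livers, against 3.88, 4.59, 4.72 and 4.47 CPM in young livers (log2 4.03 ± 0.54, adjusted p = 7.88e-05). All old libraries were above all young ones, and the log2 change was 3.32 without old replicate 1. Egr1, a zinc finger factor, had 327, 1.52, 18 and 6.22 CPM in old livers, against 1.61, 0.368, 2.8 and 2.32 CPM in young livers (log2 5.62 ± 1.24, adjusted p = 0.00748), so old replicate 1 was high and replicate 2 within the young range. Its log2 change was 2.26 without old replicate 1, and the call was lost without old replicate 1 (adjusted p = 0.0559). Fos, the partner of JUN proteins, had 19.2, 0.435, 0.832 and 1.11 CPM in old livers, against 0.274, 0.123, 1.08 and 0.331 CPM in young livers (log2 3.48 ± 0.90, adjusted p = 0.0177). Its log2 change was 0.73 without old replicate 1 and 4.45 without young replicate 3, and the call was lost without old replicate 1 or young replicates 1, 2 or 4. Btg2, which restrains cell division, followed with 216, 7.47, 14.6 and 2.62 CPM in old livers, against 1.8, 2.02, 2.88 and 3.06 CPM in young livers (log2 4.63 ± 0.99, adjusted p = 0.00585), or log2 1.76 without old replicate 1. In the fit of the 8 libraries alone the calls of Egr1, Fos and Btg2 were lost (adjusted p = 0.126, 0.199 and 0.125). Jun did not pass (log2 0.35 ± 0.41, adjusted p = 0.68).

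Some early response genes were higher in every old library. Of the 27 tested immediate early genes 11 had every old library above every young one, against 8.64% over all genes. Maff, a small MAF factor, had 18, 2.54, 4.85 and 2.14 CPM in old livers, against 0.274, 0.551, 1.04 and 0.579 CPM in young livers (log2 3.47 ± 0.71, adjusted p = 0.00325), or log2 2.35 without old replicate 1. Gadd45a, a gene of the stress and DNA damage response, had 34.2, 5.8, 5.34 and 9.74 CPM in old livers, against 1.61, 2.08, 3.04 and 4.47 CPM in young livers (log2 2.32 ± 0.50, adjusted p = 0.00453), or log2 1.34 without old replicate 1. Csrnp1, a nuclear factor that signals induce, had 19.6, 5.3, 11.8 and 8.29 CPM in old livers, against 2.55, 2.63, 1.36 and 4.63 CPM in young livers (log2 2.05 ± 0.38, adjusted p = 0.000906). Rasd1, Nedd9 and Dusp4 lie outside the list. They were taken from the 12 largest rises among genes whose groups do not overlap, so their separation was fixed by that choice. Maff is among those rises too. Rasd1, a small GTPase induced by glucocorticoids, had 11.7, 2.68, 8.25 and 1.17 CPM in old livers, against 0.94, 0.429, 0.32 and 0.414 CPM in young livers (log2 3.44 ± 0.64, adjusted p = 0.00119). Nedd9, an adaptor of integrin signalling, had 39.6, 6.17, 7.21 and 3.52 CPM in old livers, against 1.41, 0.796, 1.68 and 1.57 CPM in young livers (log2 3.36 ± 0.58, adjusted p = 0.000711), or log2 2.03 without old replicate 1. Dusp4, a phosphatase of MAP kinases, had 18.5, 1.67, 4.72 and 1.73 CPM in old livers, against 0.509, 1.23, 0.68 and 0.579 CPM in young livers (log2 3.16 ± 0.62, adjusted p = 0.00221), or log2 1.86 without old replicate 1. In the fit of the 8 libraries alone the calls of Gadd45a, Nedd9 and Dusp4 were lost (adjusted p = 0.093, 0.0645 and 0.0764).

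**Figure D4:**
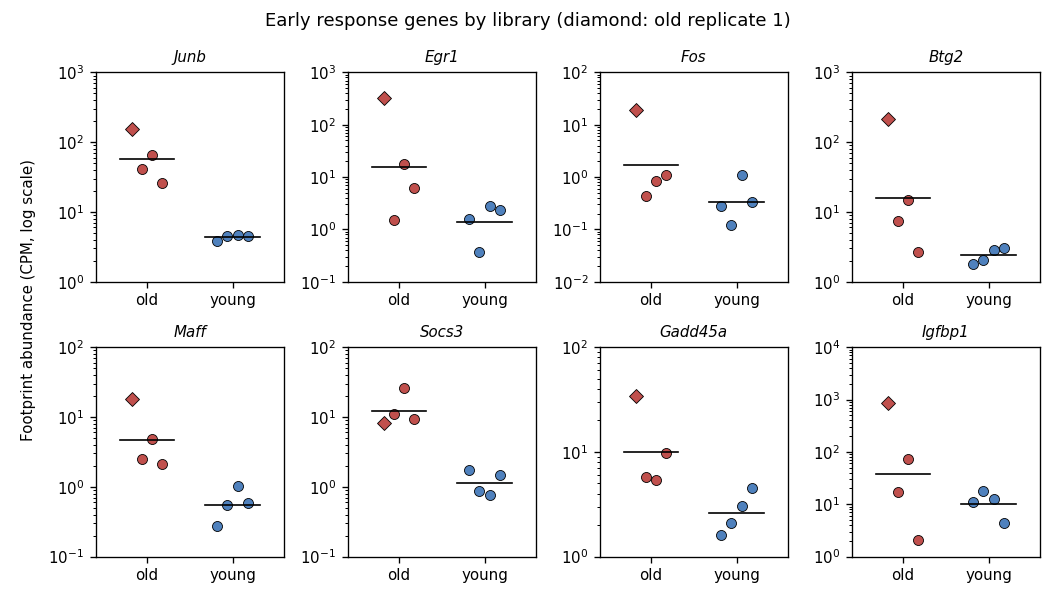
Footprint abundance in CPM (log axis) of 8 early response genes in each library; points are the 4 old and 4 young livers, lines their geometric means, and the diamond is old replicate 1. Old replicate 1 is the highest library for Egr1, at 327 CPM, and for all other panels but Socs3, where old replicate 3 has 25.9 CPM.

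Heat shock chaperones rose in part. Of 26 tested heat shock genes 6 rose and 0 fell, and the rising count was 3 without old replicate 1. Dnaja4, a co-chaperone of HSP70, had 14.5, 7.91, 6.66 and 5.94 CPM in old livers, against 3.13, 4.47, 4.6 and 2.98 CPM in young livers (log2 1.20 ± 0.26, adjusted p = 0.00438). Bag3, which links chaperones to autophagy, had 179.8, 111, 131 and 72.9 CPM in old livers, against 81.1, 45.3, 44.9 and 43.4 CPM in young livers (log2 1.20 ± 0.26, adjusted p = 0.00486). Hspa1a and Hspa1b, near-identical genes for the inducible HSP70 picked after their values were seen, did not pass (adjusted p = 0.0661 and 0.0621), and Hspa1b had 745, 117, 499 and 95.8 CPM in old livers, against 218, 59.2, 61.8 and 41.2 CPM in young livers. Both passed by DESeq2 and without old replicates 2 or 4 or young replicate 1, and the log2 change was 1.29 without old replicate 1 and 2.72 without young replicate 1 for Hspa1a and 1.31 without old replicate 1 and 2.75 without young replicate 1 for Hspa1b. Of 26 chaperones and sensors of the endoplasmic reticulum 1 rose, Xbp1, a factor of the unfolded protein response that plasma cells also need. Xbp1 had 139, 132, 90.5 and 109 CPM in old livers, against 48.5, 64.3, 59.7 and 65 CPM in young livers (log2 0.99 ± 0.21, adjusted p = 0.00306).

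Immunoglobulin genes rose from low levels. Plasma cells secrete antibodies, whose chains the immunoglobulin genes encode. Of 25 markers of B and plasma cells 11 had enough counts to be tested, and 8 of these rose and 0 fell. Over all genes 4.75% were higher, but this is not a like comparison. A marker low in young livers could pass the filter through the old ones, so the tested markers can lean towards rises. The 14 others each had 13 or fewer counts over the 4 libraries of a group, Pax5 and Tnfrsf17 with 0 in old livers, so the count does not speak for B cells in general. Igkc, the kappa light chain, had 26.6, 17.5, 17.9 and 31.9 CPM in old livers, against 0.744, 1.29, 0.68 and 0.827 CPM in young livers (log2 4.75 ± 0.56, adjusted p = 7.78e-06). Ighm, the chain of IgM, had 29.2, 16.3, 22.7 and 46.6 CPM in old livers, against 1.53, 2.27, 0.32 and 1.65 CPM in young livers (log2 4.36 ± 0.73, adjusted p = 0.000696). Igha, the chain of IgA, had 3.92, 1.74, 0.832 and 1.66 CPM in old livers, against 0.196, 0.245, 0.16 and 0.0827 CPM in young livers (log2 3.48 ± 0.63, adjusted p = 0.000658). Jchain, which joins antibodies into larger units, had 3.21, 0.798, 0.902 and 3.18 CPM in old livers, against 0, 0.245, 0.12 and 0.414 CPM in young livers (log2 3.56 ± 0.75, adjusted p = 0.00299). In each of these genes every old library was above every young one. The summed level of the 25 markers was 142 to 219.8 CPM in old livers and 54 to 79.2 CPM in young livers, of which Xbp1, a gene that hepatocytes use too, made up 90.5 to 139 CPM in old livers and 48.5 to 65 CPM in young livers.

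Macrophage markers rose as well. Of 34 tested markers of Kupffer cells and macrophages 15 rose and 0 fell, with a median of 0.61, and the rising count was 7 without young replicate 1, 8 without old replicate 3, and 9 without young replicate 4. Lyz2, lysozyme of myeloid cells, had 97.3, 36, 44 and 49.8 CPM in old livers, against 19.97, 19.2, 24.3 and 20.2 CPM in young livers (log2 1.44 ± 0.24, adjusted p = 0.000283). Marco, a scavenger receptor, had 13.7, 2.39, 3.12 and 4.63 CPM in old livers, against 1.14, 0.368, 0.88 and 0.165 CPM in young livers (log2 3.08 ± 0.57, adjusted p = 0.00122), or log2 2.26 without old replicate 1. Cd5l, a secreted protein of Kupffer cells, had 70.3, 55.1, 77.5 and 53.7 CPM in old livers, against 31.1, 34.4, 36.7 and 30.5 CPM in young livers (log2 0.95 ± 0.18, adjusted p = 0.00131). C1qa, a chain of complement C1q, had 34.3, 33.2, 37.2 and 37.9 CPM in old livers, against 22.4, 21.7, 21.1 and 26.1 CPM in young livers (log2 0.64 ± 0.16, adjusted p = 0.0104). Summed over the 35 listed markers, the level was 807 to 1055 CPM in old livers and 589.9 to 681 CPM in young livers.

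The neutrophil pair S100a8 and S100a9 rose. S100a8 had 4.06, 1.67, 1.66 and 1.45 CPM in old livers, against 0.0392, 0.123, 0.24 and 0.0827 CPM in young livers (log2 4.07 ± 0.69, adjusted p = 0.000319), and S100a9 had 4.35, 3.77, 2.36 and 1.45 CPM in old livers, against 0.0783, 0.0613, 0.48 and 0.0827 CPM in young livers (log2 3.89 ± 0.57, adjusted p = 6.67e-05). The log2 change was 4.75 without young replicate 3 for S100a8 and 5.21 without young replicate 3 for S100a9. In young replicates 1, 2 and 4 both genes lay under the floor of 3 counts. The size of these changes is therefore uncertain, and both genes could pass the filter through the old livers. The other 5 tested neutrophil markers did not pass, among them Csf3r (log2 1.33 ± 0.64, adjusted p = 0.212) and Ly6g (log2 -0.72 ± 0.44, adjusted p = 0.349). The 18 neutrophil markers, of which 7 were tested, summed to 461 to 855 CPM in old livers and 417 to 685 CPM in young livers, ranges that overlap. S100a8 and S100a9 made up at most 4.06 and 4.35 CPM of these sums, which rest on other markers and do not speak for the pair. Stfa1 was at 0 in all 8 libraries. T and NK cells were near the limit of detection: Gzmk and Klrb1c had 0 counts in all 8 libraries, and of 26 markers 1 was tested, Cd4, which did not pass (log2 0.97 ± 0.50, adjusted p = 0.248), and the summed level was 1.73 to 5.04 CPM in old livers and 1.32 to 2.15 CPM in young livers. Of 23 endothelial markers 1 rose, Vwf (log2 0.77 ± 0.20, adjusted p = 0.0147), a call lost without old replicates 1 or 4 or young replicate 3 (adjusted p up to 0.0715). Of 33 tested stellate cell and matrix genes 5 rose and 0 fell, and the rising count was 1 without young replicates 1 or 4, 2 without young replicates 2 or 3, and 3 without old replicates 2, 3 or 4. Tagln, an actin-binding protein of smooth muscle and activated stellate cells, had 21.9, 10.7, 10.4 and 7.6 CPM in old livers, against 3.21, 1.65, 4.2 and 5.05 CPM in young livers (log2 1.85 ± 0.42, adjusted p = 0.00678). The part of these cell types in the changes of other genes was not tested.

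**Figure D5:**
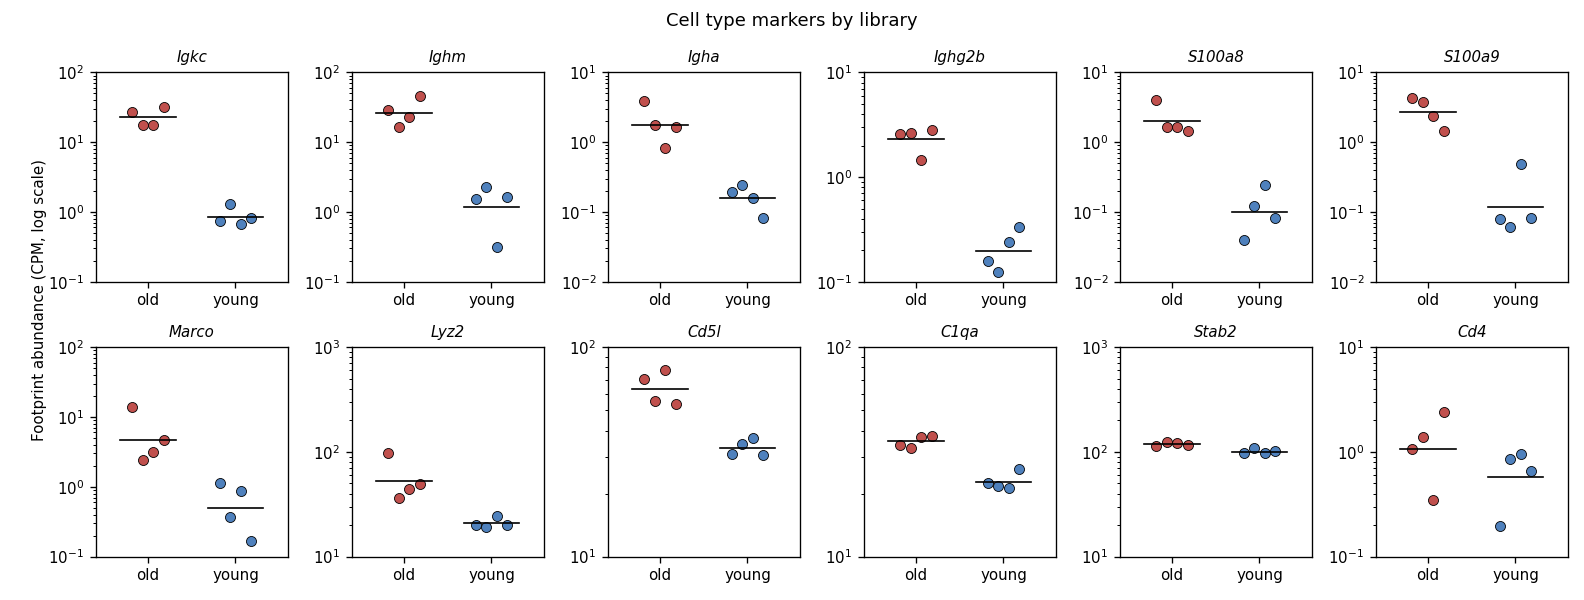
Footprint abundance in CPM (log axis) of 12 cell type markers in each library; points are the 4 old and 4 young livers and lines their geometric means. Immunoglobulin genes, S100a8, S100a9 and the macrophage markers lie higher in all 4 old livers, while Cd4, a T cell marker, overlaps; Stab2, an endothelial marker, lies at 113 to 124 CPM in old livers and 96.6 to 109 CPM in young livers, a difference that did not pass.

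Some genes of the acute-phase list rose. Acute-phase proteins are those that hepatocytes make more or less of during inflammation. Cxcl1 and Stat3, given below, act in inflammation and are not themselves such plasma proteins. Of 38 tested genes 5 rose and 0 fell, against 4.75% higher over all genes, with a median of 0.62, and the rising count was 1 without old replicate 2 or young replicates 1, 3 or 4, 3 without old replicates 1 or 3, 8 without old replicate 4, and 11 without young replicate 2. Cxcl1, which attracts neutrophils, had 3.28, 3.7, 2.08 and 0.691 CPM in old livers, against 0.274, 0.429, 0.36 and 0.0827 CPM in young livers (log2 3.01 ± 0.65, adjusted p = 0.00393). Stat3, the factor through which IL-6 acts, had 146, 274, 221 and 153 CPM in old livers, against 89.99, 135, 97 and 97.7 CPM in young livers (log2 0.92 ± 0.25, adjusted p = 0.0189), a call lost without old replicates 2 or 3 or young replicates 1, 3 or 4 (adjusted p up to 0.0753). Saa1, serum amyloid A, spread over both groups, with 18.9, 2496, 595 and 125 CPM in old livers, against 30.2, 898, 139 and 54.9 CPM in young livers (log2 1.53 ± 1.20, adjusted p = 0.491; log2 -0.18 without old replicate 2 and 3.45 without young replicate 2), and Crp did not pass (log2 -0.21 ± 0.17, adjusted p = 0.502). The metallothionein Mt2, which binds zinc and copper, had 618, 782, 838 and 7.46 CPM in old livers, against 3.6, 47.6, 8.4 and 16.6 CPM in young livers (log2 4.89 ± 1.56, adjusted p = 0.0566), so 3 old livers were high and old replicate 4 lay within the young range. Mt2 passed by DESeq2 and without old replicate 4 (adjusted p = 0.0327), and its log2 change was 5.92 without young replicate 2. Of 47 tested interferon response genes 1 rose and 1 fell, with Ifi27 at 72.4 ± 9.96 CPM in old livers and 50.2 ± 8.31 CPM in young livers (SD, n = 4 each; log2 0.53 ± 0.14, adjusted p = 0.0163), a call lost without old replicate 3 or young replicates 3 or 4 (adjusted p up to 0.0656). Of 10 tested genes of class II antigen presentation 0 passed in edgeR or DESeq2 and 8 had an unadjusted p under 0.05. In edgeR's fit of the 8 libraries alone 5 of 9 were called higher, and 1 of 10 without young replicate 4. H2-Ab1 (log2 0.67 ± 0.23, adjusted p = 0.0638) passed in both of these fits, and 9 of the 10 had a positive log2 change in the fit of all libraries. In class I, Cd1d1, which presents lipids, fell to 82, 60.9, 61.1 and 65.2 CPM in old livers, against 134, 145, 139 and 152 CPM in young livers (log2 -1.08 ± 0.15, adjusted p = 3.60e-05), and reads shared with its copy Cd1d2 are uncertain.

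Genes linked to senescence changed in part. Cdkn1a, which encodes the cell cycle inhibitor p21, had 39.1, 8.27, 30.3 and 2.28 CPM in old livers, against 17.5, 40.3, 14.2 and 26.7 CPM in young livers (log2 -0.30 ± 0.68, adjusted p = 0.85), while Cdkn2a, with 33 counts over the 4 old libraries and 3 over the 4 young ones, was too low to be tested. Of 24 tested genes of senescence and its secreted factors 7 rose and 0 fell, and the rising count was 3 without old replicate 1 or young replicate 1, and 4 without young replicates 3 or 4. Icam1, an adhesion molecule for leukocytes, had 12.1, 24.4, 14 and 12.4 CPM in old livers, against 5.21, 6, 3.84 and 4.47 CPM in young livers (log2 1.69 ± 0.37, adjusted p = 0.00486). Of 31 tested p53 targets 1 rose, Btg2, and 2 fell; the falling count was 0 without young replicate 2, and 1 without old replicates 3 or 4 or young replicates 1 or 4, and 5 in the fit of the 8 libraries alone. Trp53 (log2 0.41 ± 0.19, adjusted p = 0.179) and the stress cytokine Gdf15 (log2 -1.26 ± 0.65, adjusted p = 0.253) did not pass, but did in that fit (adjusted p = 0.0424 and 0.0389).

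Proliferation genes were lower in old liver at low levels. Of 39 tested genes 10 fell and 1 rose, against 4.59% lower and 4.75% higher over all genes, with a median of -1.15. In the fit of the 8 libraries alone 27 had enough counts to be tested. Of these 8 fell and 1 rose, with a median of -0.56. Mki67, present in dividing cells alone, had 0.641, 0.943, 1.25 and 0.414 CPM in old livers, against 2.39, 5.94, 2.56 and 2.98 CPM in young livers (log2 -2.07 ± 0.47, adjusted p = 0.00575). Top2a, a topoisomerase of dividing cells, had 0.57, 0.435, 0.832 and 0.345 CPM in old livers, against 2.98, 4.17, 2.44 and 1.57 CPM in young livers (log2 -2.35 ± 0.49, adjusted p = 0.00306). Mcm5, a subunit of the replicative helicase, had 2.21, 1.45, 1.25 and 2.14 CPM in old livers, against 13.7, 7.47, 6.16 and 3.14 CPM in young livers (log2 -2.12 ± 0.40, adjusted p = 0.00122). The groups did not overlap in these 3 genes. The alpha-fetoprotein gene Afp, active in fetal liver, did not pass (log2 -0.24 ± 0.61, adjusted p = 0.864).

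Central metabolism outside lipids changed gene by gene. Pfkfb3, which drives glycolysis through fructose 2,6-bisphosphate, had 57.7, 48.2, 74.4 and 47.7 CPM in old livers, against 10.3, 14.6, 8.96 and 9.19 CPM in young livers (log2 2.41 ± 0.28, adjusted p = 4.15e-06). Ppp1r3b, which targets a phosphatase to glycogen, fell to 28.6, 73.5, 64.5 and 66.2 CPM in old livers, against 126, 118, 115 and 109 CPM in young livers (log2 -1.01 ± 0.21, adjusted p = 0.00303). Of 35 tested genes of glucose and glycogen metabolism 2 rose and 3 fell, and the rising count was 1 without old replicates 1 or 3. Pck1 and G6pc, which control glucose release, did not pass (adjusted p = 0.95 and 0.78), and G6pc had 626, 95.9, 145 and 54.6 CPM in old livers, against 362, 305, 332 and 157 CPM in young livers, with old replicate 1 the highest. Its log2 change was -1.55 without old replicate 1, where it was called lower (adjusted p = 0.0164). Cbs, which turns homocysteine towards cysteine, had 515, 481, 577 and 449.8 CPM in old livers, against 234, 275, 219 and 233 CPM in young livers (log2 1.07 ± 0.13, adjusted p = 3.04e-06). Of 41 tested genes of the urea cycle and amino acid breakdown 2 rose and 6 fell, and the falling count was 3 without old replicate 2 or young replicate 1. Asl, an enzyme of the urea cycle, fell to 639.7, 646, 558 and 673 CPM in old livers, against 1006, 1208, 978 and 1205 CPM in young livers (log2 -0.81 ± 0.18, adjusted p = 0.00449). Asns, which makes asparagine and is a target of the stress factor ATF4, rose to 0.997, 1.67, 1.04 and 1.87 CPM in old livers, against 0.0783, 0.123, 0.1999 and 0 CPM in young livers (log2 3.57 ± 0.56, adjusted p = 0.000138), while Atf4 did not pass (log2 0.13 ± 0.23, adjusted p = 0.805).

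Antioxidant genes split, and few iron genes were called. Hmox1, which breaks down heme, had 28.4, 27.2, 31.5 and 24.7 CPM in old livers, against 12.5, 11.2, 12.9 and 13.1 CPM in young livers (log2 1.17 ± 0.25, adjusted p = 0.00337). Gpx4, which repairs oxidised lipids in membranes, had 134, 99.4, 119 and 108 CPM in old livers, against 206, 152, 193 and 199 CPM in young livers (log2 -0.70 ± 0.14, adjusted p = 0.00139). The superoxide dismutases Sod1 and Sod2 fell too, by log2 changes of -0.49 ± 0.12 and -0.44 ± 0.11 (adjusted p = 0.0103 and 0.01003). Of 29 tested NRF2 targets 2 rose and 4 fell, and the rising count was 1 without old replicate 1 or young replicates 2, 3 or 4. Of 21 tested genes of iron handling 2 rose and 1 fell, against 4.75% higher and 4.59% lower over all genes. The rising count was 1 without old replicate 1 or young replicates 3 or 4, and the falling count 0 in these fits. Hamp, the iron hormone hepcidin, did not pass (log2 0.42 ± 0.23, adjusted p = 0.274), but did without old replicate 3 (adjusted p = 0.0447).

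Some genes of mitochondrial respiration fell. Of 79 tested nuclear genes of oxidative phosphorylation 6 fell and 0 rose, against 4.59% lower over all genes, with a median of -0.26, and 27 had every old library below every young one, against 8.98% over all genes. The falling count was 2 without old replicate 4 or young replicates 1 or 3, 3 without young replicate 4, and 12 without old replicate 1, and it was 12 with upper quartile scaling, 16 by DESeq2 and 3 with no filter on low counts. Ndufb4, a subunit of complex I, had 71.8, 55.9, 63.5 and 58.4 CPM in old livers, against 101, 88.7, 99.6 and 93.3 CPM in young livers (log2 -0.61 ± 0.13, adjusted p = 0.00371). Sdhd of complex II had 76.9, 83, 72.3 and 72.8 CPM in old livers, against 107, 101, 112 and 109 CPM in young livers (log2 -0.49 ± 0.11, adjusted p = 0.00479). The 13 genes of mitochondrial DNA had a median of -1.29 but 0 passed in edgeR, where 12 had an unadjusted p under 0.05, and DESeq2 called 1 lower. Without old replicate 2 the falling count was 3. In 0 of them did the groups separate. Their share of the counts was 0.148, 0.201, 0.0701 and 0.0547% in old libraries, against 0.435, 0.409, 0.269 and 0.106% in young ones, a spread of several-fold within each group. These footprints come from mitochondrial ribosomes, which cycloheximide does not block.

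In edgeR 0 of 81 cytosolic ribosomal protein genes passed, 0 of 77 mitochondrial ones and 0 of 34 proteasome subunits, with 2, 8 and 3 at an unadjusted p under 0.05. DESeq2 called 0, 0 and 1 of them, and the median log2 changes were 0.02, -0.10 and 0.06. Ribosomal proteins took 0.635 ± 0.171% of the counts in old livers and 0.625 ± 0.0981% in young livers (SD, n = 4 each). Of 37 tested aminoacyl-tRNA synthetases, which load amino acids onto tRNA, 8 rose and 0 fell, and the rising count was 4 without old replicate 2 or young replicates 3 or 4, and 5 without old replicate 1 or young replicate 1. Cars, for cysteine, had 34.2, 42.4, 29.96 and 26.1 CPM in old livers, against 17.7, 15.7, 18 and 13.3 CPM in young livers (log2 1.03 ± 0.16, adjusted p = 8.45e-05). Nars, for asparagine, had 187, 205, 154 and 166 CPM in old livers, against 125, 114, 108 and 105 CPM in young livers (log2 0.66 ± 0.12, adjusted p = 0.000711). Of 53 tested translation factors 3 rose and 0 fell, near the 4.75% higher over all genes. The rising count was 1 without old replicates 1 or 2 or young replicates 3 or 4, and 5 without old replicate 4. Eif3d, a subunit of the initiation factor eIF3, had 78.6, 78.7, 68.1 and 72.3 CPM in old livers, against 53.3, 48.9, 52.3 and 46.1 CPM in young livers (log2 0.57 ± 0.13, adjusted p = 0.00456).

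Genes that mark hepatocytes changed in both directions. Alb fell, with 77339, 95982, 44395 and 51783 CPM in old livers, against 105956, 98222, 102418 and 106716 CPM in young livers (log2 -0.62 ± 0.19, adjusted p = 0.0352), a call lost without old replicates 3 or 4 or young replicates 1, 2, 3 or 4 (adjusted p up to 0.128) and in the fit of the 8 libraries alone (adjusted p = 0.102). Ahsg, another plasma protein, rose to 6469.5, 7561, 5459.5 and 4981 CPM in old livers, against 3627, 4235, 3882 and 3761 CPM in young livers (log2 0.66 ± 0.15, adjusted p = 0.00491). The hepatocyte factor Hnf4a (log2 0.40 ± 0.30, adjusted p = 0.458) and the perivenous marker Glul (log2 -0.08 ± 0.14, adjusted p = 0.782) did not pass. Of 27 hepatocyte markers 3 rose and 1 fell, against 4.75% higher and 4.59% lower over all genes. The rising count was 1 without old replicates 1 or 2 or young replicates 1 or 3. Ercc1 itself did not pass, with 3.13, 3.85, 4.51 and 3.52 CPM in old livers, against 2.31, 3.49, 1.92 and 3.14 CPM in young livers (log2 0.48 ± 0.36, adjusted p = 0.464).

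Old wild types were then set against the fed Ercc1 d/- mutants of 16 weeks. These groups differ in genotype and in age at once, so the part of either in a difference cannot be told apart. The old libraries enter both comparisons, so their values are given side by side and no overlap is computed. Of 12211 genes 1555 differed (12.7%), 771 higher (6.31%) and 784 lower (6.42%) in old wild types. Cyp4a10 was lower in old wild types, with 68.5, 30.2, 62.4 and 26.2 CPM in old wild types, against 585, 547, 332 and 465 CPM in mutants (log2 -3.36 ± 0.34, adjusted p = 9.18e-07). Nr1d1 was higher, with 19, 33.7, 46.7 and 52.3 CPM in old wild types, against 4.95, 1.74, 2.74 and 4.06 CPM in mutants (log2 3.49 ± 0.42, adjusted p = 7.34e-06). For this clock gene any difference in the hour of collection cannot be told apart either. Usp18, which restrains interferon signalling, had 0.427, 1.02, 1.73 and 0.829 CPM in old wild types, against 18.8, 8.54, 11.1 and 11.9 CPM in mutants (log2 -3.63 ± 0.36, adjusted p = 2.48e-07). Of 47 interferon response genes 22 were lower in old wild types than in mutants and 0 higher. Between old and young wild types Usp18 did not pass (adjusted p = 0.835), and of the same 47 genes 1 rose and 1 fell. Igkc was higher in old wild types here too, at 23.5 ± 7.03 CPM in old wild types and 5.24 ± 2.61 CPM in mutants (SD, n = 4 each; log2 2.16 ± 0.47, adjusted p = 0.00351). Of 34 macrophage markers 2 were higher and 2 lower in old wild types. Scd1 was higher in old wild types, with 12045, 7113, 7209 and 2595 CPM, against 989.7, 747, 282 and 833 CPM in mutants (log2 3.34 ± 0.44, adjusted p = 2.61e-05), while it did not pass between old and young wild types.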

How the data were processed

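Ribosome-protected fragments of 24 mouse livers, 4 in each of 6 groups, were sequenced after lysis with cycloheximide, RNase I digestion and rRNA depletion, per the labels' protocols. The authors deposited 1 table of raw whole-number counts per gene, with gene positions on GRCm38.p6. The submitters' processing notes name Trimmomatic 0.39, STAR 2.7.0f and 2.7.8a, featureCounts of Subread 1.6.4, cutadapt 3.4 and Bowtie2 2.4.2; the treatment of strand and of reads fitting several genes is not given in the sources used here. Matched mRNA libraries and translated open reading frames were not used here, so changes of mRNA and of translation cannot be told apart.

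Of 22429 genes, 12211 passed edgeR's filter (filterByExpr). Counts were scaled by TMM and fitted over all 24 libraries with 1 mean per group (18 residual degrees of freedom), and tested with the robust quasi-likelihood F test in edgeR 4.0.16 (R 4.3.3), with Benjamini-Hochberg adjustment over all genes tested and a threshold of 0.05. The fit was also run on counts simulated with the same spread in every group. Most genes here had a larger SD in old livers, so that run does not speak for the calls. CPM use the scaled library size, SD are over 4 libraries, and the floor of 3 counts is 0.117 to 0.248 CPM in the 8 libraries compared. The labels number the 4 samples of a group, and p-values measure the spread between these samples. Named genes were up to 8 per list by adjusted p, the 12 largest changes each way among those past 5 CPM with groups that do not overlap, and a set of marker genes. For genes taken as the largest changes, the lack of overlap was fixed by that choice. The genes and lists were chosen with earlier results of these data known. Alternatives were other scalings, filters and fits, DESeq2 1.42.0, a replicate block and leaving out each library. Results on some genes are not reported here.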

Additional observations from a re-analysis of the deposited data

Results flagged for a closer look

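Within each group of 4 livers, a value was set apart where its gap to the nearest other liver took a share of the group's whole range above the 95% critical value of Dixon's test. Over the 132 genes named here, 27 of 264 groups held such a value, while chance flags about 1 in 20 groups and neighbouring genes are not independent. In old replicate 1 there were 1.14 CPM of Arntl (the others 0.435 to 0.485), 216 CPM of Btg2 (the others 2.62 to 14.6), 327 CPM of Egr1 (the others 1.52 to 18) and 19.2 CPM of Fos (the others 0.435 to 1.1). The same library, old replicate 1, had 626 CPM of G6pc (the others 54.6 to 145), 34.2 CPM of Gadd45a (the others 5.34 to 9.74) and 847 CPM of Igfbp1 (the others 2.07 to 72.7). Further values of old replicate 1 were 39.6 CPM of Nedd9 (the others 3.52 to 7.21) and 4.06 CPM of S100a8 (the others 1.45 to 1.67). In old replicate 2 there were 795 CPM of Aldh1a1 (the others 1109 to 1124), 24.4 CPM of Icam1 (the others 12.1 to 14) and 3142 CPM of Pck1 (the others 2416 to 2453). In old replicate 3 there were 53.3 CPM of Cyp7a1 (the others 3.63 to 10) and 25.9 CPM of Socs3 (the others 8.27 to 10.9). In young replicate 1 there were 81.1 CPM of Bag3 (the others 43.4 to 45.3), 183 CPM of Hspa1a (the others 32.3 to 52.4), 218 CPM of Hspa1b (the others 41.2 to 61.8) and 21.9 CPM of Jun (the others 10.9 to 12.4). In young replicate 2 there were 5.94 CPM of Mki67 (the others 2.39 to 2.98), 898 CPM of Saa1 (the others 30.2 to 139), 135 CPM of Stat3 (the others 90 to 97.7) and 1.35 CPM of Susd4 (the others 0.828 to 0.901). In young replicate 3 there were 116 CPM of Cyp7a1 (the others 150 to 153) and 0.48 CPM of S100a9 (the others 0.0613 to 0.0828). In young replicate 4 there were 1829 CPM of Ces1d (the others 1572 to 1609), 24.5 CPM of Cry1 (the others 17.8 to 18.6) and 163 CPM of Ghr (the others 184 to 185).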

How the results depend on the processing

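Leaving out 1 library at a time, the count of genes that changed between old and young ran from 755 to 1034, of higher genes from 357 to 542 and of lower genes from 396 to 492. With RLE or upper quartile scaling, other filters, the 8 libraries alone, or without the mitochondrial genes and albumin, the count of changed genes lay between 1011 and 1364, and DESeq2 called 1443. With the replicate block it was 1096, against 1141 without it; no source states what the numbers share, and the deviations of same-numbered old and young libraries correlated at 0.127, 0.143, -0.081 and 0.1, so they were not taken as pairs. With the block, 10 of the 13 mitochondrially encoded genes were called lower, against 0 without it, and 3 genes of oxidative phosphorylation, against 6, while Fos and Nr1i3 lost their calls (adjusted p = 0.061 and 0.0542) and Hspa1b passed (adjusted p = 0.0496). Over the 16 alternatives, 82 of the 95 named genes that changed kept their call in all, and of the values for named genes 2032 kept their direction and side of the threshold, 40 no longer passed it and 21 newly passed it, while 12, none past the threshold in the fit concerned, changed direction. With 1 library left out at a time, the log2 change of these ran from -0.37 to 0.27 for Scd1, -0.85 to 0.073 for Cdkn1a, -0.25 to 0.041 for Pck1, -1.55 to 0.0027 for G6pc, -0.14 to 0.27 for Atf4, -0.18 to 3.45 for Saa1 and -0.21 to 0.45 for Usp18, and with the 8 libraries alone it was 0.0015 for Scd1. The cause of these losses was not tested. Genes under a few CPM rest on few counts, and 4 livers per group limit the precision.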

Other observations

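Of the 1141 genes that changed, 894 were in none of the gene lists, and in 586 of these the groups did not overlap and the higher one averaged at least 5 CPM, 279 higher and 307 lower in old livers. The genes below were taken from these by the smallest p, so after their values were seen, and are given as a description. Retsat, which saturates retinol, averaged 229 ± 37.1 CPM in old livers and 836 ± 138 CPM in young livers (SD, n = 4 each). Crat, which makes acetylcarnitine, averaged 10.1 ± 1.24 CPM in old livers and 47.9 ± 7.13 CPM in young livers. Acot5 and Acot6, relatives of the thioesterases Acot1 to Acot3, had log2 changes of -3.07 ± 0.34 and -2.81 ± 0.36. Aldh3a2, which oxidises fatty aldehydes, and Ech1, an isomerase of fatty acid oxidation, had log2 changes of -1.52 ± 0.19 and -0.88 ± 0.11.

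Among the genes higher in old livers, Cnp, best known from myelin, averaged 24.1 ± 3.53 CPM in old livers and 9.32 ± 1.52 CPM in young livers. Flna, which crosslinks actin, averaged 30.4 ± 3.27 CPM in old livers and 14.9 ± 1.18 CPM in young livers. Akr1b3, an aldose reductase, had a log2 change of 0.84 ± 0.13, with every old library above every young one.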
